A study of Mus musculus with 12 samples.

Results

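The genes described here mark successive steps of the oligodendrocyte lineage: PDGFRA, OLIG1, OLIG2, SOX10, NKX2-2, GPR17, BCAS1, ENPP6, TCF7L2 and LHFPL3. They were chosen by name and not by a rule on their values, but earlier results of these data were known at that time. Of these 10 genes, 9 were listed above the lesion among 13647 gene entries and 8 were listed below the lesion among 12338. LHFPL3 was not listed below the lesion, and SOX10 was not listed at either site and was not analysed here. The RNA came from spinal cord of male mice expressing the human ApoE4 variant, at 4 months of age and 14 days after a contusion at thoracic level 9. One genotype carried normal alleles of synaptojanin 1 only (synj1+/+) and the other carried 1 inactive allele (synj1+/-). Segments of about 2 mm were taken above (rostral) and below (caudal) the lesion, which gave 4 groups of 3 libraries each, all from injured mice with human ApoE4. Each gene has 1 value per group and site, which the authors combined from the 3 libraries. The spread between mice is therefore unknown, no difference below carries an error or a p-value, and none can be called larger than replicate error. The authors normalised the sites separately, so a level set across sites also carries that step.

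Oligodendrocytes make the myelin of the central nervous system, and new ones arise in the adult cord from precursor cells that divide and migrate after injury. Precursors depend on platelet-derived growth factor, which acts through the receptor PDGFRA. As they commit to differentiation they lose PDGFRA, pass through a stage marked by GPR17, BCAS1 and ENPP6, and then express the myelin genes. The transcription factors OLIG1, OLIG2, SOX10 and NKX2-2 set up and maintain the lineage, and TCF7L2, a nuclear partner of Wnt signalling, is expressed transiently as cells begin to differentiate. In bulk tissue, fewer cells of a type and less RNA per cell cannot be told apart.

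The promoters of 3 genes are shown because these genes carried the differences described below: TCF7L2 and PDGFRA had the 2 lowest genotype ratios below the lesion, and ENPP6 had the lowest ratio of the tissue below to the tissue above. Promoter windows were taken from RefSeq on GRCm38.p6, where 6 of the 10 genes matched (not OLIG1, SOX10, GPR17 or BCAS1) and TCF7L2 matched a pair of windows, of which the upstream one is shown. The 250 bases before the start were searched on both strands for an E box (CANNTG, the kind of site that OLIG1 and OLIG2 bind), a TCF/LEF core (TCAAAG, the kind that TCF7L2 binds) and a SOX core (ACAAAG or ACAATG). Capitals mark a match, all 3 windows are on the plus strand, and no matches overlapped in them.
PDGFRA, chr5:75152001-75152250: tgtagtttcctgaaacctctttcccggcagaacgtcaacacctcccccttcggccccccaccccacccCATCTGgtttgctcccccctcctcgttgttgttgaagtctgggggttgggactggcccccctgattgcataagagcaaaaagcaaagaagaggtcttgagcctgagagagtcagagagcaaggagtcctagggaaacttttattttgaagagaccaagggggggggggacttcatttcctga
TCF7L2, chr19:55741560-55741809: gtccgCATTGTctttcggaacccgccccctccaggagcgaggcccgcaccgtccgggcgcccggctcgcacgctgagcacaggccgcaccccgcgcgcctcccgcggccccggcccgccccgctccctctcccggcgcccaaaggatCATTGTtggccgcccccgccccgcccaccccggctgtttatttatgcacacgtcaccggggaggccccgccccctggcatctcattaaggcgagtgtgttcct
ENPP6, chr8:46986637-46986886: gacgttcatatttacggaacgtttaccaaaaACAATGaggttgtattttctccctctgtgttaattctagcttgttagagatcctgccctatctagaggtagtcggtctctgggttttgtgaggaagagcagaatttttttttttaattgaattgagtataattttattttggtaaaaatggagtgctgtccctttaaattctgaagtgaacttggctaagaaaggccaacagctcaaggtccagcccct
The PDGFRA window held 1 E box, 182 bases before the start. The TCF7L2 window held 2 SOX cores, 245 and 103 bases before the start, and the ENPP6 window held 1, 219 bases before. Of 32851 mouse promoter windows of this length, 66.2% held an E box, 25.2% a SOX core and 13.8% a TCF/LEF core. A match of these letters is a description of the sequence and not a binding site.

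SYNJ1, the targeted gene, was read first because it checks the labels. Above the lesion its value in FPKM plus 1, a read count scaled to gene length and library size, was 1905 in synj1+/+ and 2404 in mice labelled synj1+/-. The values below the lesion were 1847 and 2593. SYNJ1 was thus higher in mice labelled synj1+/- at both sites, by 26.2% above and 40.4% below, which runs against the label of a lost allele. The value covers the whole gene and does not resolve single exons. If the labels of the genotypes were exchanged, every genotype ratio given here would change sign, and lower would read higher. Unless it is named as a ratio of below to above the lesion, a log2 ratio is of the listed value in mice labelled synj1+/- over that in synj1+/+. Values are given in the order synj1+/+, then synj1+/-.

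PDGFRA, the receptor that holds precursors in the proliferative state, lies on chromosome 5 from 75152292 to 75198215 on the plus strand (GRCm38). Its value above the lesion was 63.6 in synj1+/+ and 58.3 in mice labelled synj1+/-, a log2 ratio of -0.13. Below the lesion it was 69.3 and 56.0, a log2 ratio of -0.31, which is 19.2% lower. Mice labelled synj1+/- had the lower value at both sites, and the lowest of the 4 values was theirs below the lesion. Among all genes below the lesion, 12.4% had a lower ratio than PDGFRA, and above the lesion 24.7% did.

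PDGFRA is also expressed by fibroblasts, which are numerous in spinal cord scars. The 10 fibroblast markers examined were all listed below the lesion, and in all 10 the synj1+/+ value was at least 25% above that in mice labelled synj1+/-. Their summed value there was 526 in synj1+/+ and 96.6 in mice labelled synj1+/-. Decorin (DCN), a matrix proteoglycan, was 139 and 19.8. Above the lesion the 9 listed fibroblast markers summed to 68.4 and 58.1, and 5 passed the same limit. Of all genes, 7.45% passed it in that direction above the lesion and 11.5% below. The part of fibroblasts in the PDGFRA values was not tested. A short marker list of precursors held 5 genes besides PDGFRA that were listed below the lesion, with log2 ratios from -0.23 to -0.07. A longer list of 15 precursor genes listed below the lesion, which holds these 5, ran from -0.23 to 0.41. Of the 15, 9 had a log2 ratio below 0 and 6 above 0, among the latter SOX5 at 0.30 and CACNG4 at 0.27. These 2 genes also had ratios above 0 above the lesion, of 0.24 and 0.19. Of the 5 genes on the short list, CSPG4 (the NG2 proteoglycan) was 14.1 and 12.6 below the lesion, a log2 ratio of -0.16. PTPRZ1, a receptor phosphatase, was 216 and 205 at that site, a log2 ratio of -0.07.

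LHFPL3, a tetraspan membrane protein enriched in precursors, lies on chromosome 5 from 22746059 to 23275597 on the plus strand. It was listed only above the lesion, with values of 83.2 and 83.3 and a log2 ratio of 0.00. It was the gene with the least difference between the genotypes of the 9.

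GPR17, a G protein-coupled receptor of committed precursors that holds back their maturation, lies on chromosome 18 from 31942997 to 31949636 on the minus strand. Its value above the lesion was 67.4 in synj1+/+ and 49.8 in mice labelled synj1+/-, a log2 ratio of -0.44. Below the lesion it was 49.3 and 41.6, a log2 ratio of -0.25. The order of the groups was the same at both sites. GPR17 had the lowest ratio of the 9 genes above the lesion, where 3.90% of all genes had a lower one. Below the lesion 16.1% of all genes had a lower ratio than GPR17.

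BCAS1 and ENPP6 mark the step after GPR17. BCAS1, a protein of newly forming and early myelinating oligodendrocytes, lies on chromosome 2 from 170346991 to 170427845 on the minus strand. Its values were 5081 and 5168 above the lesion and 5638 and 5187 below it, with log2 ratios of 0.02 and -0.12. These levels were far above those of GPR17, and above those of the myelin gene MOG (283 and 249 above, 206 and 231 below). They are therefore not read here as a measure of new oligodendrocytes alone, and their cell source was not tested. ENPP6, a choline phosphodiesterase of newly formed oligodendrocytes, lies on chromosome 8 from 46986887 to 47096762 on the plus strand. Its values were 138 and 118 above the lesion, a log2 ratio of -0.23, and 82.3 and 85.7 below it, a log2 ratio of 0.06. Neither gene kept 1 direction at both sites.

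OLIG1 and OLIG2 shared a direction at each site, but not the same one at both. OLIG2, a basic helix-loop-helix factor needed for precursors to form, lies on chromosome 16 from 91225457 to 91228677 on the plus strand, and OLIG1, its relative with a larger part in maturation, from 91269772 to 91271933 on the same strand. OLIG2 was 49.2 and 46.2 above the lesion and 41.7 and 47.4 below, for log2 ratios of -0.09 and 0.18. The values of OLIG1 were 238 and 219 above the lesion and 211 and 224 below, for log2 ratios of -0.12 and 0.09. Both genes were lower in mice labelled synj1+/- above the lesion and higher in them below.

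NKX2-2, a homeodomain factor that promotes differentiation, lies on chromosome 2 from 147177546 to 147194243 on the minus strand. It was 110 and 125 above the lesion, a log2 ratio of 0.18, the highest of the 9 genes there. Below the lesion it was 97.7 and 98.5, a log2 ratio of 0.01, and that sign turned when the median of all genes was subtracted (a log2 ratio of -0.0035).

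TCF7L2 lies on chromosome 19 from 55741820 to 55933654 on the plus strand. Its value above the lesion was 215 in synj1+/+ and 176 in mice labelled synj1+/-, a log2 ratio of -0.29. Below the lesion it was 247 and 168, a log2 ratio of -0.56. Mice labelled synj1+/- had the lower value at both sites, by 32.0% below the lesion, and their 2 values were closer to each other than those of synj1+/+. Of all genes, 9.27% had a lower ratio above the lesion and 4.70% below it. TCF7L2 had the lowest ratio of the 8 genes below the lesion and the second lowest above.

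**Figure D1:**
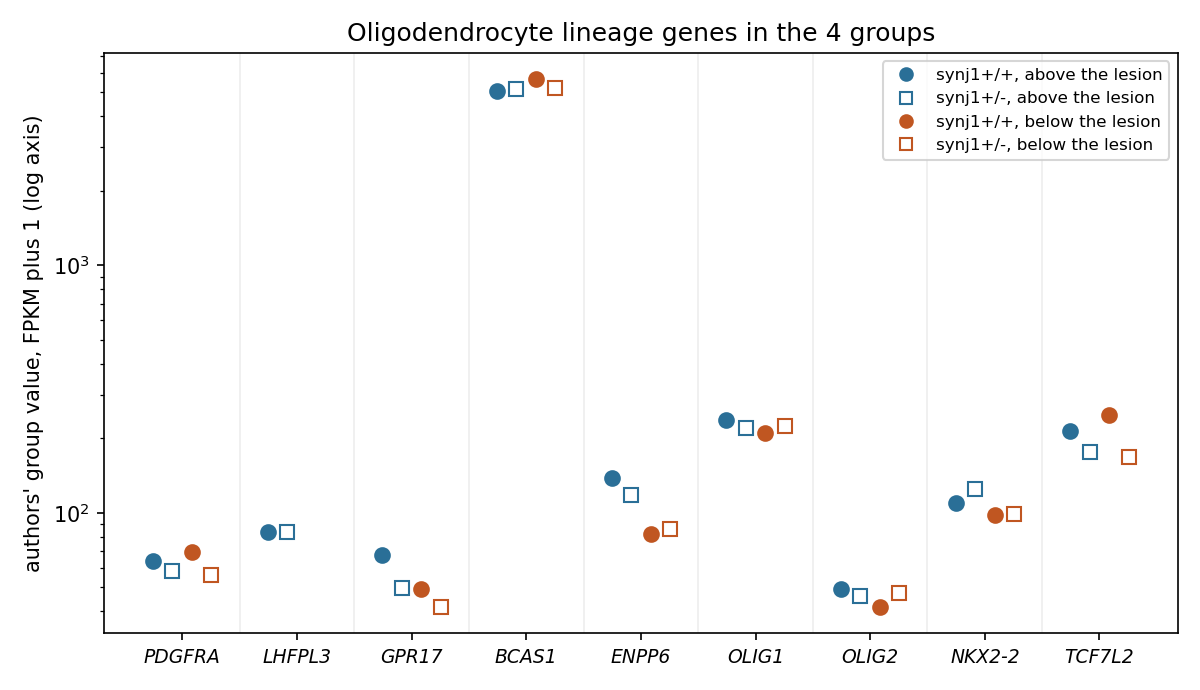
Values of the 9 listed genes in the 4 groups, as FPKM plus 1 on a log axis, with 1 point per group that stands for the authors' value of 3 libraries, filled circles for synj1+/+ and open squares for mice labelled synj1+/-. BCAS1 sits far above the rest in all 4 groups, at 5081 or more, and the other genes lie between 41.6 (GPR17) and 247 (TCF7L2).

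A gene was counted as lower or higher when 1 group was at least 25% above the other, a log2 ratio past 0.32 in size. Above the lesion 1 of 9 genes was lower (GPR17, 11.1%), where 7.45% of all genes were, and 0 were higher, where 4.18% of all genes were. Below the lesion 1 of 8 was lower (TCF7L2, 12.5%), where 11.5% of all genes were, and 0 were higher, where 8.06% of all genes were. The counts of the lineage genes are therefore near those of all genes. The median log2 ratio of the lineage genes was -0.12 above and -0.05 below, against -0.0039 and 0.014 for all genes. With each gene left out in turn, it ran from -0.12 to -0.11 above and from -0.12 to 0.01 below, so its sign below the lesion depends on which genes are included. Above the lesion 6 of the 9 genes had a ratio below 0 on the log2 scale, as did 51.0% of all genes, and below the lesion 4 of the 8 did, as did 47.2% of all genes.

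**Figure D2:**
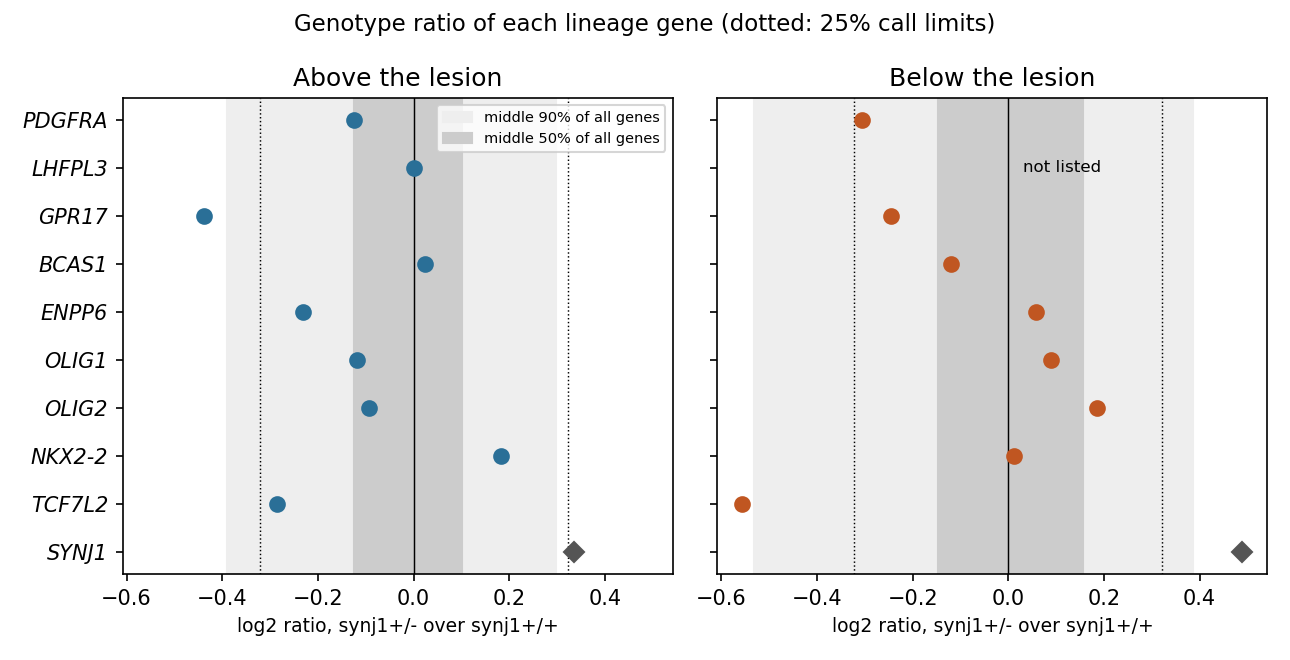
The log2 ratio of mice labelled synj1+/- over synj1+/+ for each lineage gene (circles) and SYNJ1 (diamonds), above the lesion on the left and below it on the right, over the middle 50% and 90% of all genes at the site. GPR17 above the lesion and TCF7L2 below it lie outside the middle 90% on the low side, and SYNJ1 lies outside it on the high side at both sites.

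Between the sites, 3 of the 8 genes listed at both were lower in mice labelled synj1+/- each time (PDGFRA, GPR17 and TCF7L2), where 29.1% of 12023 genes were. NKX2-2 was higher at both sites, and OLIG1, OLIG2, BCAS1 and ENPP6 had opposite signs, as did 39.6% of all genes. The log2 ratio below minus that above was highest for ENPP6, at 0.29, and OLIG2, at 0.28. It was lowest for TCF7L2, at -0.27, and PDGFRA, at -0.18. The median of this difference, which lies in a gap between 4 low and 4 high genes, was 0.024 over the 8 genes and 0.022 over all genes, with the middle 50% of all genes between -0.138 and 0.172. ENPP6, OLIG1, OLIG2 and GPR17 (0.19) lay above that range, and TCF7L2, PDGFRA, NKX2-2 (-0.17) and BCAS1 (-0.145) lay below it. All 8 genes were thus outside the middle of the distribution and spread to both sides of it, and the mice behind these differences may be the same at both sites.

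The lineage genes were also compared with each other, a comparison over the 8 genes listed at both sites that was chosen after the values were seen and leaves out LHFPL3. Above the lesion GPR17 was 0.35 below the mean log2 ratio of the 7 others, and NKX2-2 was 0.36 above the mean of its 7 others. Below the lesion the relative log2 ratio of TCF7L2 was -0.51 and that of OLIG2 was 0.34. The ratios of the lineage genes were thus unequal at both sites.

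The levels of the genes differed far more than the genotypes did. FPKM is per length, but the unit was inferred here, so levels of different genes are set side by side only with that limit. BCAS1 was the highest in all 4 groups, between 21.3 and 23.6 times the next gene, and it was the 14th and 15th highest of all listed genes above the lesion and the 9th and 12th highest below. OLIG1 or TCF7L2 came next in each group, and ENPP6 and NKX2-2 followed. The lowest value was that of OLIG2 in 3 groups and that of GPR17 in mice labelled synj1+/- below the lesion. OLIG1 exceeded OLIG2 in every group, with 238 against 49.2 in synj1+/+ above the lesion. Whether neighbours in this order differ beyond their spread cannot be said with 1 value per group. The kit did not mark strand, and annotated genes on the opposite strand share 17.6% of the exon bases of LHFPL3, 9.67% of NKX2-2, 7.26% of OLIG1 and, for the larger of a pair of such genes, 11.7% of BCAS1, with 4.55% of PDGFRA and 3.62% of GPR17 shared with the largest such partner, so reads of these genes and of their partners cannot be told apart there.

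Below against above the lesion, ENPP6 stood apart. Since the sites were normalised separately, the ratio of below to above was taken relative to the median of all genes listed at both sites. ENPP6 was lower below the lesion in both genotypes, with 138 above and 82.3 below in synj1+/+ and 118 and 85.7 in mice labelled synj1+/-. Its relative log2 ratio was -0.75 in synj1+/+, where 0.566% of all genes had a lower one, and -0.48 in mice labelled synj1+/-, where 1.70% did.

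GPR17 was also lower below the lesion in both genotypes, with relative log2 ratios of -0.45 in synj1+/+ and -0.28 in mice labelled synj1+/-. NKX2-2 had relative log2 ratios of -0.17 and -0.36. PDGFRA, TCF7L2 and BCAS1 were higher below the lesion in synj1+/+, at 0.12, 0.20 and 0.15, and lower in mice labelled synj1+/-, at -0.08, -0.09 and -0.02. In synj1+/+, 2 of the 8 genes were at least 25% lower below the lesion (GPR17 and ENPP6), where 7.77% of all genes were, and 0 were higher, where 10.2% were. In mice labelled synj1+/-, 2 of 8 were lower (NKX2-2 and ENPP6), where 5.21% of all genes were, and 0 were higher, where 5.66% were.

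**Figure D3:**
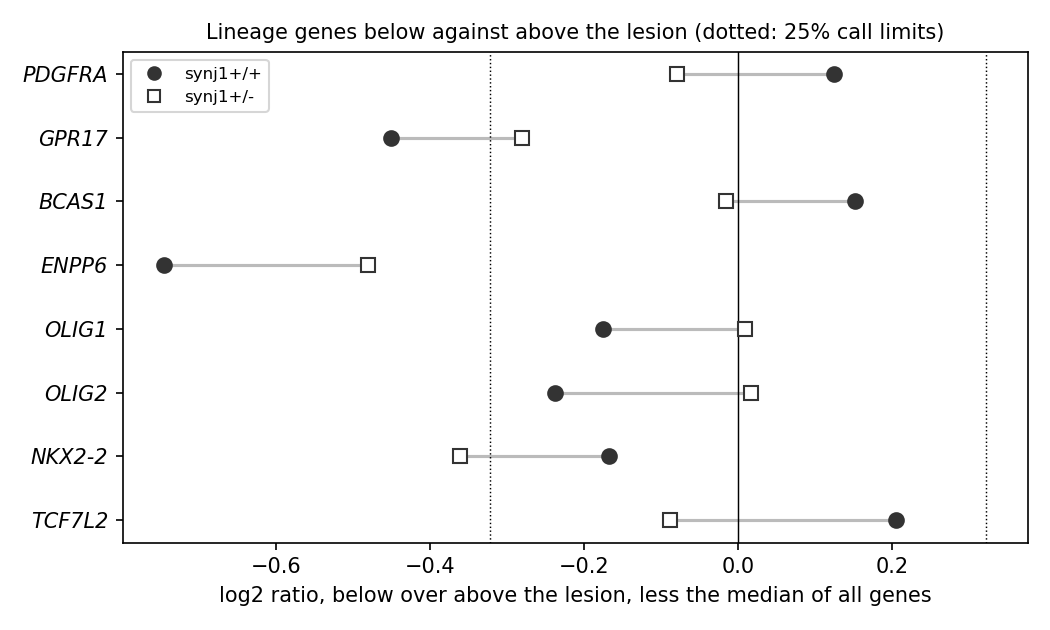
The log2 ratio of the value below the lesion to that above it, less the median of all genes, for the 8 genes listed at both sites, with filled circles for synj1+/+ and open squares for mice labelled synj1+/-. ENPP6 lies lowest in both, at -0.75 and -0.48, and no gene passes the upper dotted line.

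OLIG2 and OLIG1 lie 214 and 258 kb from SYNJ1, and are the only lineage genes of the 10 on its chromosome, 16. Of the 20 listed genes within 1 Mb of SYNJ1 above the lesion, these 2 included, 0 were at least 25% lower or higher. Of all genes there, 7.45% were lower and 4.18% were higher. The log2 ratios of the 20 ran from -0.28 to 0.24. Below the lesion 24 were listed, of which 4 were lower and 2 were higher, with log2 ratios from -0.67 to 0.48. Of all genes at that site, 11.5% were lower and 8.06% were higher. OLIG2 and OLIG1 lay within these ranges at both sites. The genes nearest to them on the far side from SYNJ1, the interferon receptor subunit IFNAR2 and the receptor subunit IL10RB, had log2 ratios of -0.62 and -0.67 below the lesion, opposite in sign to OLIG2 at 0.18 and OLIG1 at 0.09. These neighbours were named after their values were seen.

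**Figure D4:**
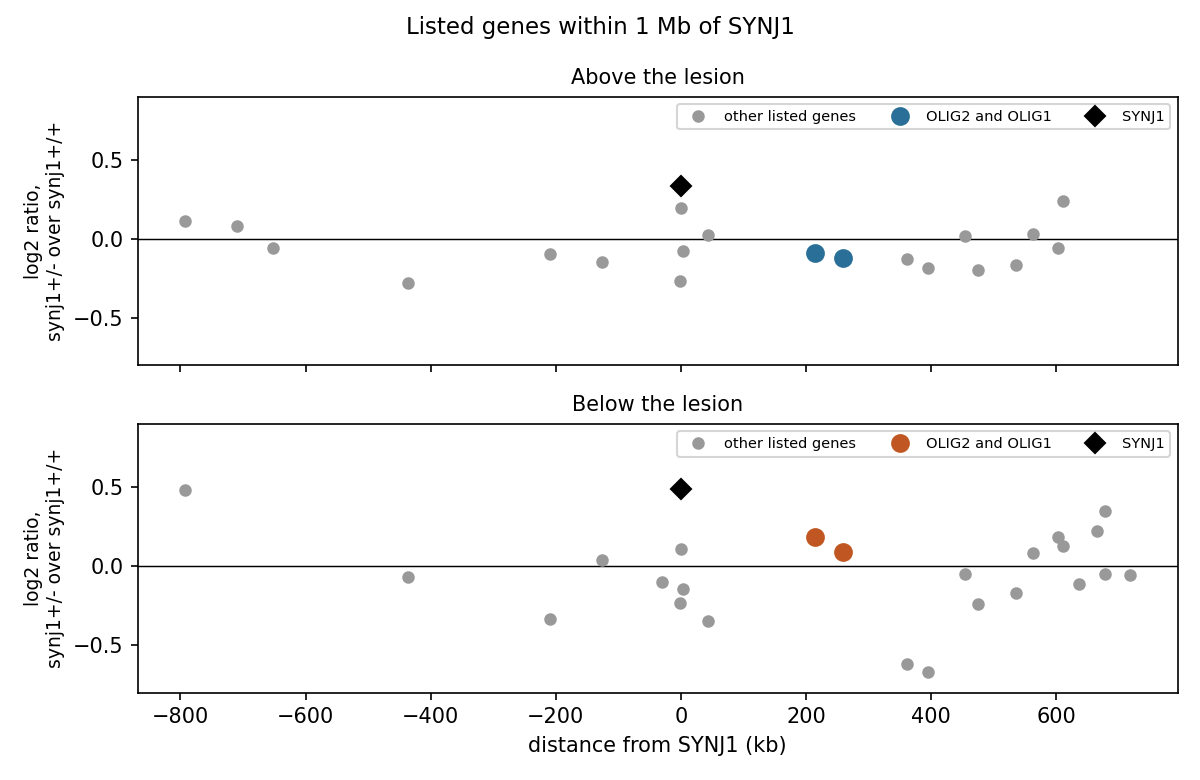
The log2 ratio of mice labelled synj1+/- over synj1+/+ against distance from SYNJ1 in kb, for listed genes within 1 Mb, above the lesion in the upper panel and below it in the lower. OLIG2 and OLIG1 (large circles) lie at -0.09 and -0.12 above the lesion and at 0.18 and 0.09 below it.

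Other genes of the same stages were counted by the same limit, to be read against the shares of all genes (7.45% lower and 4.18% higher above the lesion, 11.5% and 8.06% below). Of 16 further precursor markers, 16 were listed above the lesion with a median log2 ratio of -0.11, of which 1 was lower (TNR, the matrix protein tenascin-R, 168 and 122) and 0 were higher. Below the lesion 15 were listed with a median of -0.07, of which 0 were lower and 1 was higher (RLBP1, a retinoid-binding protein, 24.0 and 31.9). Of 14 further genes of differentiating oligodendrocytes, 14 were listed above with a median of -0.17 and 1 lower (RRAS2, a Ras-related GTPase, 14.4 and 10.3). Below the lesion 11 were listed with a median of -0.08 and 1 lower (BMP4, 10.9 and 6.44), and 0 were higher at either site. Of these differentiating genes, 11 had a log2 ratio below 0 and 3 above 0 above the lesion, and 8 and 3 did below it. TNS3, an adhesion protein on this list, was 291 and 236 above the lesion and 282 and 234 below, within the limit. MYRF, on the same list, was 346 and 349 above and 292 and 305 below. TNS3 and MYRF were named after their values were seen.

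Myelin genes showed 0 genes past 25% at either site. Their median log2 ratio was -0.05 above the lesion over 14 listed genes and 0.03 below it over 13. MOBP, a compact myelin protein, was 10916 and 10552 above the lesion and 10366 and 9724 below. MOG, at the outer face of the sheath, was 283 and 249 above and 206 and 231 below. The myelin genes MBP, MAG and CNP were not analysed here, so the check of the lineage against oligodendrocyte markers rests on MOBP and MOG.

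The PDGF ligands all stayed within the 25% limit at both sites. PDGFC had the largest ratio of them in size, -0.24 on the log2 scale below the lesion. PDGFA, the main ligand of PDGFRA in the cord, was 227 and 243 above the lesion and 249 and 238 below. Of the 5 genes of the PDGF list, 0 were lower or higher above the lesion, and below it 1 was lower, the sister receptor PDGFRB of mural cells and fibroblasts, at 25.8 and 18.3. For TCF7L2, 12 Wnt pathway and partner genes were listed above the lesion, of which 2 were lower and 1 was higher, with a median log2 ratio of -0.07. APC, the scaffold of the beta-catenin destruction complex, was 786 and 598, and LEF1, a factor of the same family as TCF7L2, was 16.7 and 25.3. The other lower gene was TCF7L1, a repressor of that family, at 9.48 and 7.49. Below the lesion 11 were listed with 0 lower or higher and a median of -0.14, and beta-catenin itself (CTNNB1), the binding partner of TCF7L2, was 713 and 633.

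Inhibitors of oligodendrocyte differentiation in the Notch, BMP and Id pathways had a median log2 ratio of -0.04 above the lesion over 12 genes, with 0 lower and 2 higher, and of -0.14 below it over 11, with 0 lower and 1 higher. The Notch target HES5 was the higher at both sites, at 8.71 and 16.9 above and 9.67 and 13.7 below. HES1, another Notch target, was 14.7 and 20.1 above the lesion and 21.9 and 19.1 below.

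Markers of several other cell types had ratios farther from 0 than the lineage genes. Of 13 microglia and macrophage markers listed above the lesion, 9 were lower and 0 were higher, with a median log2 ratio of -0.43 and a summed value of 2635 and 1834. Below the lesion 8 of 10 were lower and 0 were higher, with a median of -0.64 and a sum of 3010 and 1958. The complement gene C1QC was 644 and 411 above the lesion. Of 7 neuron markers listed below the lesion, 2 were higher and 0 were lower, with a sum of 8453 and 10622, and above it 0 of 9 were lower or higher, with a sum of 10337 and 11653. SNAP25 was the largest part of these sums, at 5272 and 6929 below the lesion and 5239 and 6248 above. Schwann cell markers, which belong to the myelinating cells of the roots, summed to 974 and 823 below the lesion with 4 of 7 lower, and to 848 and 882 above it with 1 of 5 lower and 1 higher. S100B, which is also on the astrocyte list, was the largest part of these sums, at 802 and 714 below and 765 and 799 above. Astrocyte markers summed to 20061 and 16914 above, with 0 of 9 lower or higher, and to 18394 and 14782 below, with 2 of 9 lower. GFAP was the largest part of these sums, at 12975 and 10584 above and 11117 and 8485 below. The part of these other cell types in the values of PDGFRA, GPR17 and TCF7L2 was not tested.

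**Figure D5:**
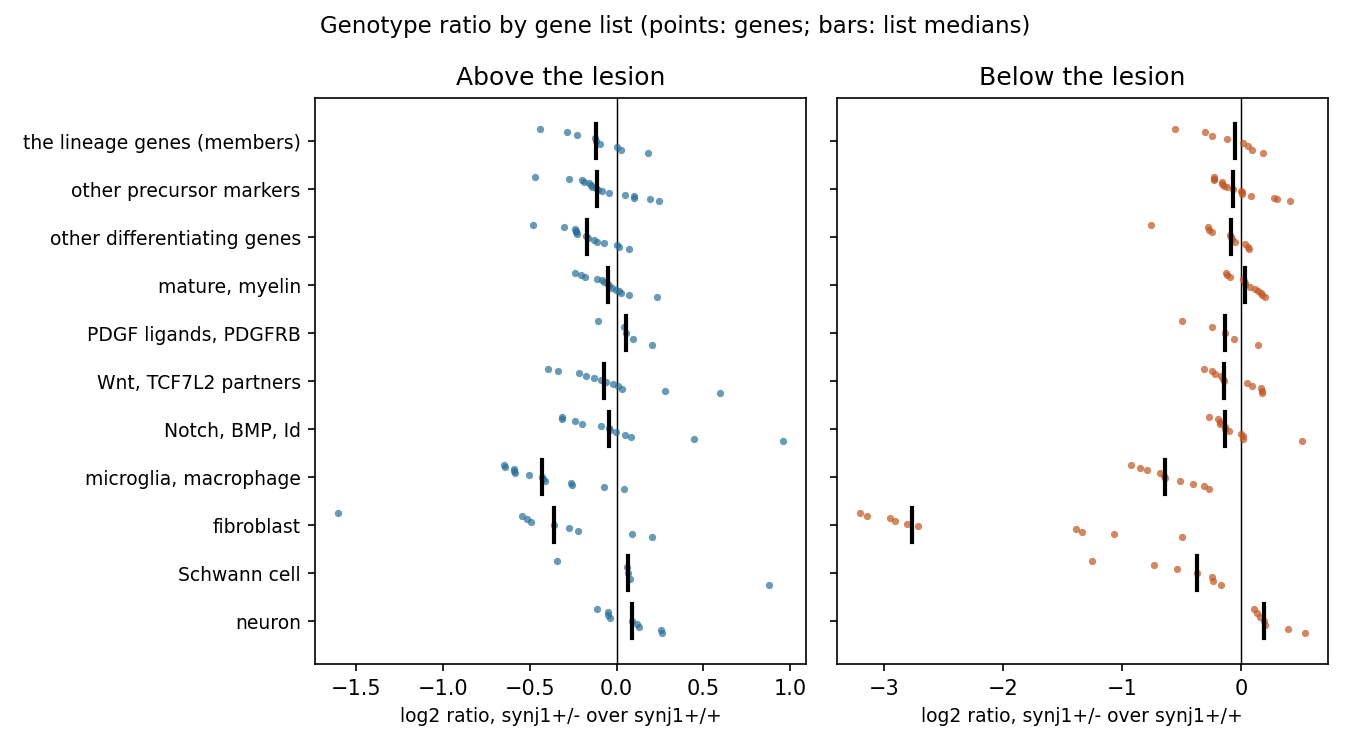
The log2 ratio of mice labelled synj1+/- over synj1+/+ for each listed gene (points) of the lineage genes and of other gene lists, with bars for list medians, on separate horizontal scales above and below the lesion. The oligodendrocyte lists have medians between -0.17 and 0.03, the microglia and macrophage markers have medians of -0.43 above and -0.64 below, and the fibroblast markers reach a median of -2.76 below the lesion.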

How the data were processed

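Libraries of 3 animals per group were made from total RNA (TruSeq v2, random primed). Per the study's methods, reads of a site's libraries were randomly reduced to its smallest library, aligned and summarised per gene with upper quartile normalisation; the labels' processing notes name STAR 2.5.4b, Cuffdiff 1.3.0 and GRCm38.p6. The authors deposited 1 value per gene, group and site, read here as FPKM plus 1 because Cuffdiff reports FPKM and the lowest value is exactly 1; neither header nor methods name the unit. The added 1 brings ratios of low genes closer to 1. Depth per library and counting errors cannot be read from these values. The deposited p-values, q-values, fold changes and the shorter list at p of 0.01 or less are the authors' own comparisons and were not used.

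Groups follow the labels. The log2 ratio of the listed values was computed for all 25985 entries with Python 3.11.15, numpy 2.4.6 and pandas 2.3.3, tested on simulated data. Without values of single libraries no test, SD or interval was possible. A ratio past 1.25 was counted, beside the share of all genes. Alternatives were ratios of 1.1 and 1.5, subtracting 1, adding 9, centring, a minimum of 10, and leaving out PDGFRA or SOX10. Entries sharing a symbol within a site (6) were left out between sites. Named genes are the 10 lineage genes, SYNJ1, and from each list at most 4 genes per site past the ratio with values of at least 10 in both groups; other names were chosen after their values were seen. The lineage genes and lists were chosen with earlier results of these data known. Positions are from GENCODE vM21 and promoters from RefSeq. Not every gene of the lists is reported here.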

Additional observations from a re-analysis of the deposited data

How the results depend on the processing

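With a ratio of 1.1, 3 lineage genes were lower and 1 was higher above the lesion, and 3 were lower and 1 was higher below it. With a ratio of 1.5, 0 were lower at either site. The shares of all genes past 1.1 or 1.5 were not counted. Whether the counts of lineage genes at these ratios exceed those of all genes was therefore not tested. For scale, the lower and upper quartiles of the log2 ratio of all genes were -0.124 and 0.101 above the lesion. Below the lesion these quartiles were -0.148 and 0.155. The median difference of the log2 ratios between the sites, 0.024 over 8 genes, became 0.19 without PDGFRA. With the other genes left out in turn, chosen after seeing the data, it was 0.19 without NKX2-2, BCAS1 or TCF7L2 and -0.145 without OLIG1, OLIG2, GPR17 or ENPP6. The median log2 ratio below the lesion, -0.05, turned to 0.01 without PDGFRA, GPR17, BCAS1 or TCF7L2. Subtracting 1, adding 9, centring on all genes or requiring values of at least 10 moved each of the 17 log2 ratios by under 0.1, at most by 0.059, and turned 1 of their signs, that of NKX2-2 below the lesion. Leaving out SOX10 changed nothing because it was not listed. No paired analysis was possible because the table has 0 columns of single samples, and for the same reason no result could be recomputed without a replicate.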

Other observations

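Partners of the lineage factors were counted by the same limit. Of 10 chromatin and transcription factor partners, 10 were listed above the lesion and 8 below, with 0 lower or higher by at least 25% at either site. Their median log2 ratios were -0.01 and -0.07, and the ratios ran from -0.31 to 0.19 above and from -0.27 to 0.17 below. CHD7, a chromatin remodeller that acts with SOX10 in the lineage, was 63.7 and 54.4 above the lesion and 64.6 and 53.5 below it. SMARCA4, the ATPase of a remodelling complex recruited by OLIG2, was 342 and 343 above and 324 and 363 below.

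Proliferation genes were near the lowest values of the table. The shares of all genes beside the counts here were 7.45% lower and 4.18% higher above the lesion, and 11.5% and 8.06% below. Of 10 proliferation genes, 5 were listed above the lesion, with 1 lower (the survivin gene BIRC5, 5.80 and 4.58) and 0 higher, and 6 below, with 3 lower and 1 higher. Only PCNA, the sliding clamp of DNA replication, exceeded 10, at 37.0 and 35.3 above the lesion and 39.3 and 32.3 below, while the others ranged up to 6.53. The division marker MKI67 was not listed at either site. Endothelial markers had a median log2 ratio of 0.10 above the lesion, with 1 of 8 higher and 0 lower, and of -0.14 below it, with 1 of 8 lower and 0 higher. Pericyte and smooth muscle markers, on the vessels that precursors move along, had medians of 0.23 above the lesion, with 1 of 5 higher and 0 lower, and -0.16 below it, with 2 of 5 lower and 0 higher.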
